A study of Mus musculus with 16 samples.

Results

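Occupancy by the myogenic transcription factor MyoD and acetylation of histone H3 at lysine 27 (H3K27ac, a mark of active promoters and enhancers) were described at 37 genes that encode parts of the sarcomere other than myosin heavy chain and troponin. The genes were given as a list that used no measured value, but it was chosen with earlier results of these data known. All 37 were found among the 21631 protein-coding RefSeq genes considered. They held 90 of the 24264 MyoD regions and 175 of the 59960 H3K27ac regions of the series. A region is the span of overlapping or touching peaks from the 4 libraries of an antibody. It was given to the gene body that it overlapped, or otherwise to the nearest one within 50 kb, which does not show that the gene is controlled from there.

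The cells were satellite cells (muscle stem cells) taken from the hindlimb of C57BL/6 mice and grown in culture. Libraries labelled LncMyoD-KD came from cells exposed for 48 h to small interfering RNA against the long noncoding RNA LncMyoD, and the others were labelled control. The labels give the same treatment text for both groups, and do not state how the control cells were treated. Each antibody had 2 control and 2 knockdown libraries, and the labels do not say whether these came from separate animals or cultures. Values therefore measure only the spread between these libraries, which may be technical.

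The sarcomere is the contractile unit of striated muscle, built from actin thin filaments and myosin thick filaments that are anchored at Z-discs and M-bands. Titin spans from the Z-disc to the M-band, and chaperones fold and place the filament proteins. MyoD binds E-boxes, short sequences of the form CANNTG, and turns on the differentiation programme in which myoblasts leave the cell cycle, fuse and assemble sarcomeres. Many sarcomere genes also have sites for serum response factor (the CArG box) and for MEF2 factors.

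The MyoD lists held 13146 to 17818 peaks and the H3K27ac lists 39964 to 54082, with the knockdown 2 library the shortest for both antibodies. Read depth is unknown, because the lists hold no read counts. As a check of the labelled cell type, 9 of 10 markers of muscle stem cells and myoblasts, Pax7, Myod1, Myf5 and Myog among them, had an H3K27ac region in all 4 libraries within 1 kb of a gene end. Of the 5 markers each, this held for 2 fibro-adipogenic, 1 endothelial, 2 smooth muscle and pericyte, 2 immune and 1 Schwann gene. Pdgfra, Kdr, Myh11 and Ptprc, which mark other cell types, had no H3K27ac region. The files hold no RNA values, and loss of LncMyoD could not be checked from them.

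RefSeq promoter windows (250 bases before to 50 bases after an annotated start, GRCm38.p6) were available for 29 of the 37 genes, 4 of which had 2 windows. Not matched were Actn3, Neb, Myom2, Tcap, Lmod3, Myoz1, Myot and Xirp1. A MyoD region present in all 4 libraries overlapped 10 of the 33 windows (30.3%), against 3.48% of the 21045 windows of all protein-coding genes. These were the windows of Acta1, Capn3, Des, Klhl40, Klhl41, Mybpc1, Pdlim3, Smyd1, Tpm2 and Ttn, and all 10 were also overlapped by an H3K27ac region of all 4 libraries. Such an H3K27ac region overlapped 17 of the 33 windows (51.5%), against 42.7% of all windows. Its share among all windows with MyoD is not given here. The 250 bases upstream of the start are printed for 4 of the 10 windows that cover a thin filament, a thick filament, an intermediate filament and an assembly gene, with every CANNTG in capitals.

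Tpm2 (chr4:43523555-43523804, minus strand): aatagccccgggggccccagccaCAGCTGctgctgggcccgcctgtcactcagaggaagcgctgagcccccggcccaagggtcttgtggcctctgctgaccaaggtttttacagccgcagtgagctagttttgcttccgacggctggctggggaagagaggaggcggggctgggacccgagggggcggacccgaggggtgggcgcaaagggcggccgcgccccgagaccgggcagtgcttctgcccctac

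Mybpc1 (chr10:88605153-88605402, minus strand): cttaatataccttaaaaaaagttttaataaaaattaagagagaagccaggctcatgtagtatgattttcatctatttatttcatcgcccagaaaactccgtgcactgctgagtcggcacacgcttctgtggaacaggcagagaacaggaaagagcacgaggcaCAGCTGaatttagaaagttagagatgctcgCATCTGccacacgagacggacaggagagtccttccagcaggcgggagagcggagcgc

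Des (chr1:75360042-75360291, plus strand): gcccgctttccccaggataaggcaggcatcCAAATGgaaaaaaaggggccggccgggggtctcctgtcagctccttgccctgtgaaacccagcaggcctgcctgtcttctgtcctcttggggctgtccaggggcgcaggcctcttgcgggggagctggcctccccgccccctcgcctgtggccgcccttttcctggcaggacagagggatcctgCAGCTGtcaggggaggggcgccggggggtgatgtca

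Klhl40 (chr9:121777357-121777606, plus strand): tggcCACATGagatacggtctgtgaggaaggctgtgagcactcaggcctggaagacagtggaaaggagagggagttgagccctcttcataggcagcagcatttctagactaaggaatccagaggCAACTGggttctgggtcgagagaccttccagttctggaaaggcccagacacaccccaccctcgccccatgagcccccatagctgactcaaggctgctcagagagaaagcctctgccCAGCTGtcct

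The E-box CAGCTG, one form of CANNTG that reads the same on both strands, begins at position -227 from the start in Tpm2, -87 in Mybpc1, -36 in Des and -10 in Klhl40. In Tpm2 the summits of the MyoD peaks lay at positions -198 and -239 in control 1 and control 2 and at -229 and -196 in knockdown 1 and knockdown 2, which is 4.5 to 28.5 bases from the centre of this E-box. At Klhl40 the summits lay at -7 and 3 in the controls and at 41 and 30 in the knockdown libraries, 0.5 and 10.5 bases and then 48.5 and 37.5 bases from the centre of CAGCTG. At Des the distances were 4.5 to 56.5 bases. The summits at Mybpc1 lay downstream of its start, 92.5 to 113.5 bases from its CAGCTG, and distances also reached 103.5 bases at Klhl41 and 113.5 at Pdlim3. Nearness of the summit to CAGCTG was thus not shared by all of these windows. The nearest CANNTG of any kind was 0.5 to 20.5 bases away at Mybpc1 and 4.5 to 18.5 at Klhl41. It was 6.5 to 36.5 bases away at Pdlim3 and 0.5 to 30.5 at Klhl40, and up to 67.5 at Capn3 and 61.5 at Ttn. Distances were taken only for summits inside a window, so summits farther away are left out. Acta1 and Smyd1 had no such summit in any library, and Capn3 and Ttn had none in control 1. The CANNTG at position 6 in Mybpc1 and at 8 in Klhl40 lie downstream of the printed stretches. A window with more CANNTG offers more from which the nearest is taken. CAGCTG occurred in 16 of the 33 windows (48.5%) and in 15.7% of all protein-coding windows. Among the 10 windows with MyoD in all libraries 8 held it, all but Smyd1 and Ttn, as did 8 of the other 23 (34.8%). Over all protein-coding windows the shares were 48.4% of the 733 that MyoD overlapped and 14.5% of the rest. CANNTG of any kind was in 28 of the 33 windows (84.8%), against 69.0% of all windows.

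The upstream sequences of Actc1 and Unc45b are printed because H3K27ac over these 2 windows was called in the control libraries alone. Actc1 encodes cardiac α-actin, which is also made in developing skeletal muscle, and Unc45b encodes a chaperone of muscle myosin.

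Actc1 (chr2:114052876-114053125, minus strand): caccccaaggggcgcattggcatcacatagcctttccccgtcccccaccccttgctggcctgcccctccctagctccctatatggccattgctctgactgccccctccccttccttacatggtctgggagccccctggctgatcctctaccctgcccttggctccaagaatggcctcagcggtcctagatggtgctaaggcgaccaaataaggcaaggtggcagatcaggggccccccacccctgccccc

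Unc45b (chr11:82911003-82911252, plus strand): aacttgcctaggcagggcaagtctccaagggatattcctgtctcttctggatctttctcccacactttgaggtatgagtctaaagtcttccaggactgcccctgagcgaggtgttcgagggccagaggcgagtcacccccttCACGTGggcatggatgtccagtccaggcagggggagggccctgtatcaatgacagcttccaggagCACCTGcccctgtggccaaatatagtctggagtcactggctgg

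Neither sequence holds CAGCTG. Unc45b has 2 CANNTG, and Actc1 has its single CANNTG at position 8, downstream of the printed stretch. A CArG box was found at -47 in Actc1, at -73 in Acta1, at -99 in Myom1 and in the 2 overlapping windows of Ldb3, or 15.2% of the 33 windows against 1.54% of all. MEF2 sites were found in Capn3, Klhl41, Myom3, Myoz2 and Ttn, again 15.2%, against 2.61% of all windows. Such matches describe letters in a short window, and binding of these factors was not measured.

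Most of the sarcomere genes carried both MyoD and H3K27ac, before and after knockdown. A gene is said to carry an antibody in a group when both libraries of the group had at least 1 peak assigned to it. In the controls 31 genes carried both, Myoz2 (a calcineurin-binding Z-disc protein) carried H3K27ac alone, and Tcap (the titin cap protein telethonin), Myoz1 and Mybpc2 (fast myosin-binding protein C) carried neither. The remaining 2 were split between libraries, with MyoD at Tpm3, a slow tropomyosin, and H3K27ac at Tmod4, a tropomodulin, in 1 control each. The H3K27ac region of Myoz2 that was present in all libraries had fold enrichments, a measure of signal over background at the peak summit, of 3.90 and 5.33 in the controls against 7.46 and 4.46 in the knockdown. At Tmod4 the values were 3.32 in control 1 and 3.09 in knockdown 1. After knockdown 29 genes carried both, and the 2 that left this state were Actc1 and Unc45b. Which genes changed state depended on the setting. With equal numbers of peaks per library Myom3 left it too, and Myot carried both after knockdown only (30 genes in the controls and 28 after knockdown). With peaks of a fold enrichment of at least 5 the numbers were 26 in the controls and 27 after knockdown. Without knockdown 1 they were 31 and 31, but there a peak in knockdown 2 alone was enough. Over all protein-coding genes 25.7% carried both in the controls and 21.5% after knockdown.

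**Figure D1:**
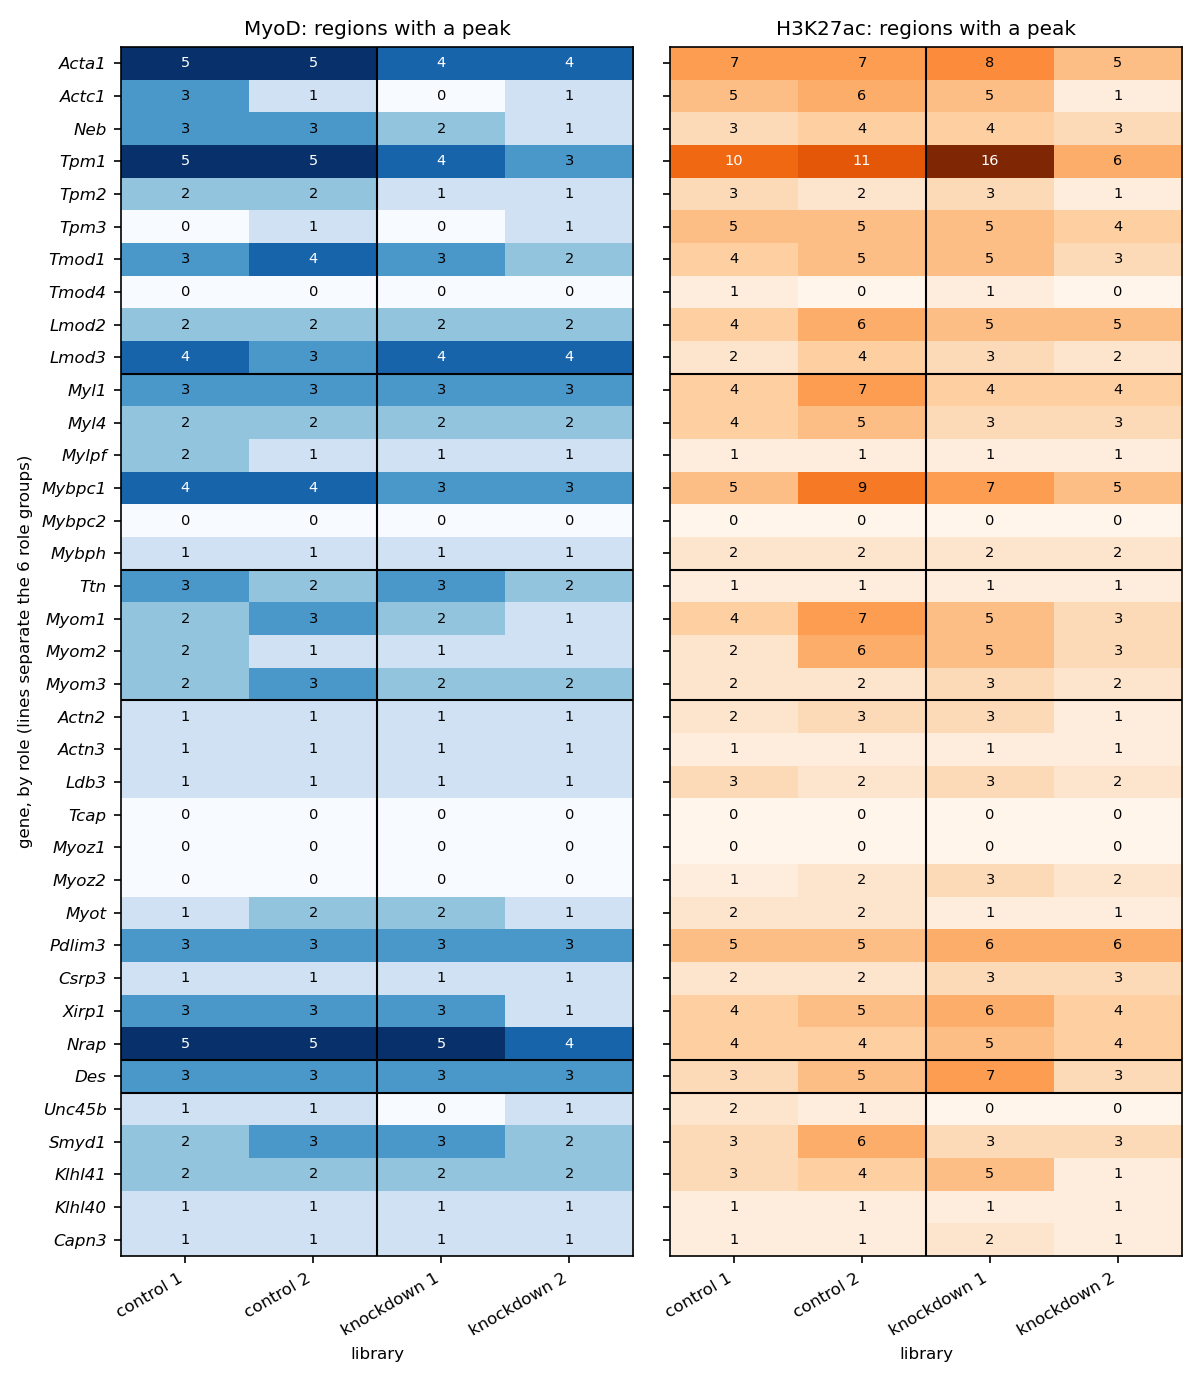
Number of regions with a peak at each of the 37 genes (rows, in 6 role groups separated by lines) in the 4 libraries of each antibody (columns), with darker cells for more regions. MyoD was found at 29 to 32 genes and H3K27ac at 32 to 34 genes per library, and Tcap, Myoz1 and Mybpc2 stayed at 0 for both.

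MyoD peaks were found at 31 and 32 of the 37 genes in the control libraries and at 29 and 32 in the knockdown libraries. The means were 31.5 ± 0.707 and 30.5 ± 2.12 (SD, n = 2 each), and the exact two-sided permutation test gave p = 1. Without knockdown 1 the difference of -1 genes turned to 0.5. The design of 2 against 2 libraries cannot reach 0.05, since the smallest exact p is 0.333. H3K27ac peaks were found at 34 and 33 genes in the controls and 33 and 32 after knockdown (33.5 ± 0.707 and 32.5 ± 0.707, SD, n = 2 each, exact permutation p = 0.667). Of the 31 genes with MyoD in both controls, 0 lacked it in both knockdown libraries (a count of 0 of 31 allows up to 9.68%), against 5.23% of all genes with MyoD in both controls. For H3K27ac it was 1 of 33, Unc45b, against 0.413% of all genes. In the other direction, 0 of the 29 genes with MyoD and 0 of the 32 with H3K27ac in both knockdown libraries lacked it in both controls, against 0.87% and 0.208% of all genes.

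Counted by region, fewer of the MyoD sites at these genes had a peak after knockdown. Of the 90 regions, 74 and 74 had a peak in the controls, 65 in knockdown 1 and 58 in knockdown 2. The means were 74 in the controls and 61.5 ± 4.95 (SD, n = 2) after knockdown, 16.9% lower, with an exact permutation p of 0.333, the smallest possible. Over all MyoD regions the numbers of peaks present were 16.7% lower (exact permutation p = 0.333), so the members' difference was near that of the whole list. With equal numbers of peaks per library, and also with peaks of at least 5-fold enrichment, the difference of -12.5 regions was -7. It was -7.5 when only regions overlapping a gene body were counted.

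**Figure D2:**
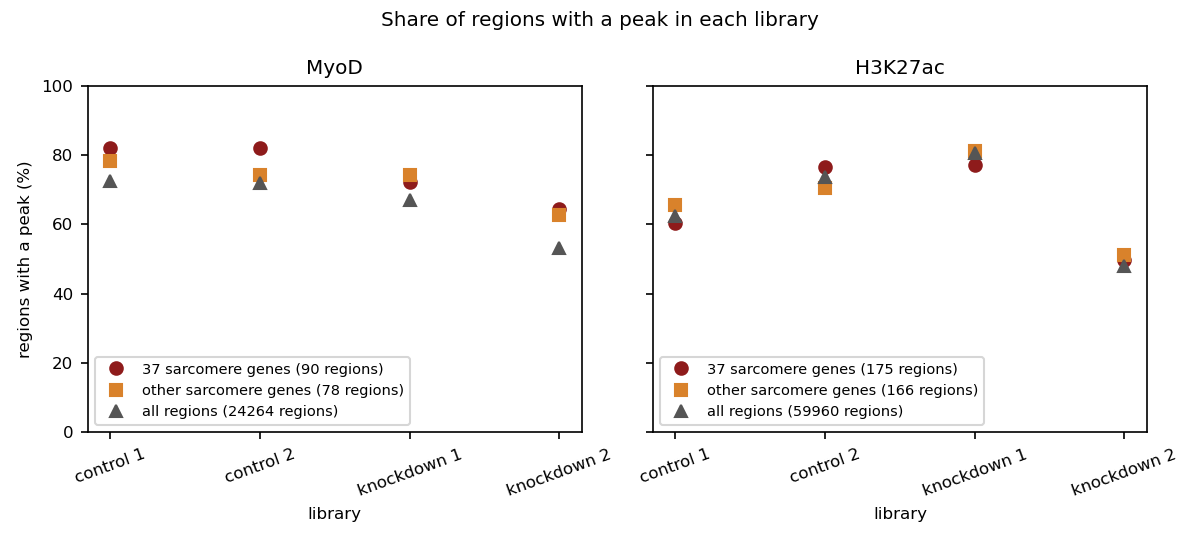
Share of regions with a peak (y axis, percent) in each library (x axis) for the 37 genes, for 40 other sarcomere genes and for all regions of the series. For MyoD the 37 genes stand at 82.2% in each control and at 72.2% and 64.4% in the knockdown libraries, and knockdown 2 is the lowest library for both antibodies at the 37 genes and over all regions.

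A MyoD region present in all 4 libraries was found at 29 of the 37 genes (78.4%), against 22.5% of all protein-coding genes. Of the 90 regions 52 were of this kind (57.8%, against 40.8% of all MyoD regions), 3 were control-only and 0 were knockdown-only. Control-only means a peak in both controls and in neither knockdown library. The 3 control-only regions are 3.33% of the 90, and 4.55% of all MyoD regions were control-only, so the share was near the background. For knockdown-only regions the background was 0.729%, and 0 of 90 allows up to 3.33%. All 3 control-only sites were at thin filament genes, the role group with the most MyoD regions (33 of the 90). The sites lay in the lower part of their lists, at percentiles of 49.6 or below.

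One of them lay 1.73 kb downstream of the start of Tpm2, β-tropomyosin, which winds along actin and gates myosin access (chr4:43521397-43521822). Its fold enrichment, which like all others here is the authors' own value, was 6.61 in control 1 and 5.30 in control 2. It remained control-only with stricter peaks, wider merging and equal peak numbers. The second lay 5.26 kb downstream of the start of Tpm1, α-tropomyosin (chr9:67043592-67043952), with values of 4.96 and 4.97, and no region was left there with equal numbers of peaks. The last lay 12.2 kb outside Neb, nebulin, the giant protein along the thin filament (chr2:52350994-52351435), with 3.96 and 6.29. With equal numbers of peaks the Neb region was no longer control-only.

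The strongest MyoD site of each gene, chosen by its mean fold enrichment in the controls, was ranked by percentile among the peaks of each list. The median percentile was 84.6, 82.9, 81.0 and 81.7 in control 1, control 2, knockdown 1 and knockdown 2. For the strongest site of every protein-coding gene with a MyoD region, chosen the same way, it was 64.1, 61.9, 62.6 and 60.9. Genes with more regions have more from which the strongest is taken, and those of the sarcomere list with any region had 2.8 on average, against 2.3 over all genes. In each list 10 or 11 of the 29 to 32 sarcomere genes with a peak at their strongest site were at or above the 90th percentile, against 16.2% to 17.2% of all such genes. The 52 regions present in all libraries had a median fold enrichment of 11.1 and 9.44 in the controls against 9.58 and 9.01 in the knockdown. Over all such regions it was 8.86, 8.61, 8.84 and 7.84. Fold enrichments were scaled separately in each list, and the values below are set side by side without a test. The choice by control values also favours sites that are high in the controls. Both knockdown values were below both control values at Ttn, Neb, Mybpc1, Tpm1, Nrap and Pdlim3 and above both at Tpm2, Ldb3 and Klhl40. At the other genes the groups overlapped, or a library had no peak.

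Thin filament genes were led by Tpm2, whose start carried values of 22.5 and 21.2 in the controls against 23.2 and 23.9 in the knockdown (chr4:43523356-43524114). These lay at percentiles 98.1 to 99.1 of their lists. Lmod3, leiomodin 3, an actin nucleator, had its strongest site 6.57 kb from the gene (chr6:97259782-97260403), at 18.8 and 21.9 in the controls against 19.2 and 16.9 in the knockdown. This site had no H3K27ac region in any library. Of the 991 MyoD regions of all 4 libraries with a mean control fold of at least 15.7, 22 (2.22%) lay outside every H3K27ac region, among them this one. Lmod2 had values of 11.6 and 15.6 against 10.7 and 12.5 at a site 1.69 kb downstream of its start, so the groups overlapped.

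Acta1, skeletal α-actin, falls outside the rule by which genes were named and is given as the main adult actin. The site 0.228 kb upstream of its start had values of 12.6 and 14.2 in the controls against 8.54 and 16.1 in the knockdown, with the knockdown libraries on either side of the controls. Neb had values of 11.2 and 11.9 against 11.1 and 7.84 at an intragenic site, the lowest being knockdown 2. Tpm1 had 5 and 5 sites with a peak in the controls against 4 and 3 in the knockdown, and 2 of its 7 were present in all libraries. Tpm3 had 1 site, called in control 2 (7.29) and knockdown 2 (5.88). Tmod1, a capping protein of the actin pointed end, kept 2 of 5 sites in all libraries, and its relative Tmod4 had none.

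Among thick filament genes, Myl1, an essential myosin light chain, carried 3 MyoD regions, each present in all 4 libraries. The strongest lay 3.70 kb downstream of the annotated start used for its promoter window, and 6575 bases from the nearer boundary of the gene body. It had values of 19.8 and 16.2 in the controls against 18.8 and 11.8 in the knockdown, with knockdown 2 the lowest. At the start of Mybpc1, slow myosin-binding protein C (chr10:88604843-88605414), the values were 16.9 and 16.2 in the controls against 13.3 and 13.7 in the knockdown. Mylpf, the fast regulatory light chain, stood at 16.9 and 10.9 against 15.8 and 15.3, with control 2 the lowest. Myl4 had 2 regions and Mybph 1, all present in every library.

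Myom1, myomesin 1, which crosslinks thick filaments at the M-band, held the strongest MyoD site of the 37 genes. It lay 19.1 kb downstream of the annotated start used for its promoter window, which is inside the gene body (chr17:71038704-71039335). From the nearer boundary of the gene body it was 35372 bases. The site had values of 24.8 and 24.5 in the controls against 27.3 and 23.5 in the knockdown. These lay at percentiles 99.0 to 99.2 of their lists. Myom2 had 11.9 and 8.94 against 9.58 and 8.62, and Myom3 had 9.58 and 6.40 against 3.87 and 6.94. The Myom3 value of knockdown 1 was near the bottom of its list, at percentile 3.6. Ttn, titin, carried 2 regions at and next to its start in all libraries, with 6.61 and 7.29 against 5.16 and 6.27 at the start.

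**Figure D3:**
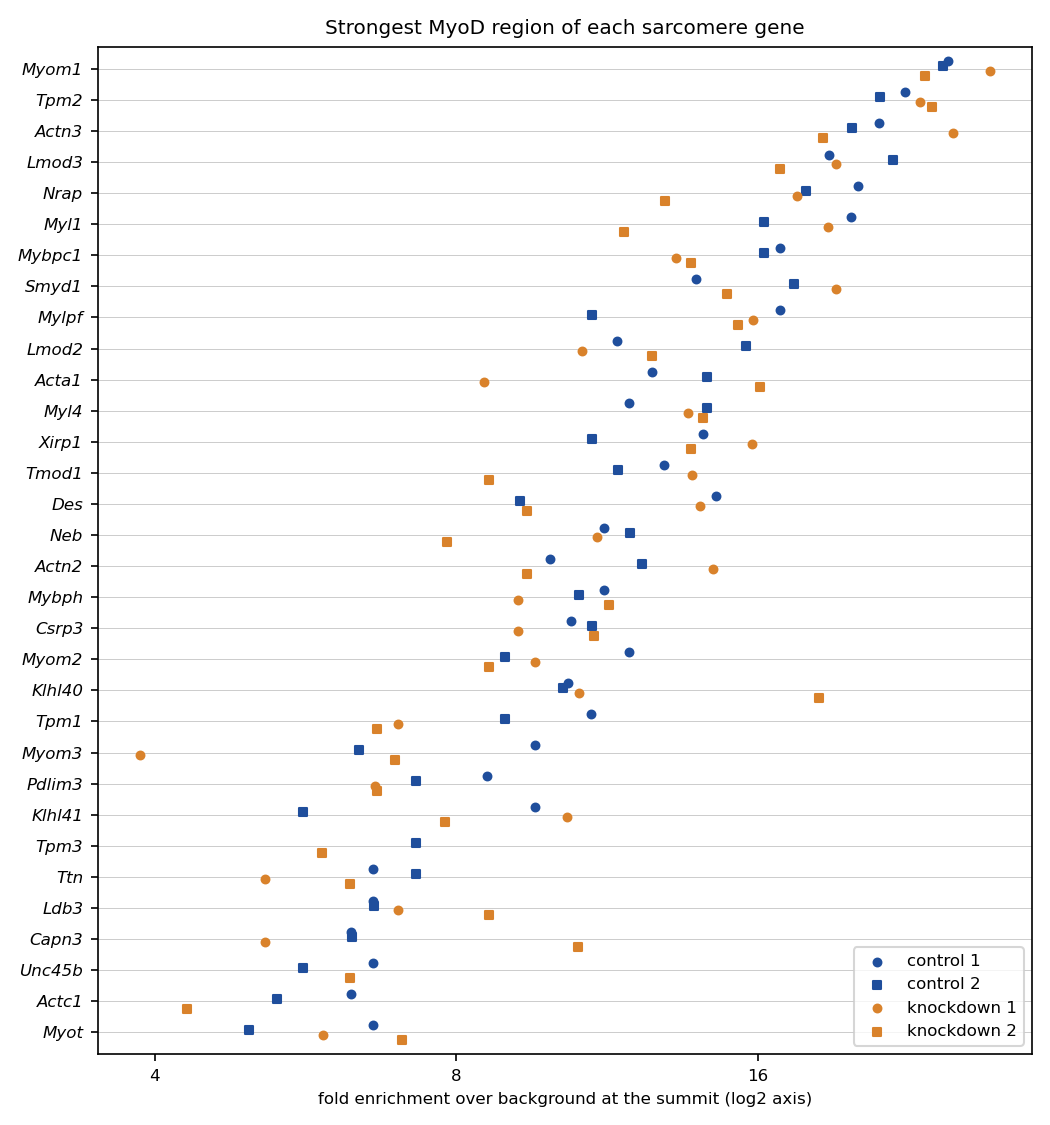
Fold enrichment (x axis, log2 scale) of the strongest MyoD region of each gene with a MyoD region, chosen by its mean in the controls, with 1 point per library. Points of the 4 libraries lie close together at Tpm2 and Myom1, whereas Klhl40 and Capn3 have a high knockdown 2 value, 18.4 and 10.6.

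At the Z-disc, Actn3, fast α-actinin, had values of 21.2 and 19.9 in the controls against 25.1 and 18.6 in the knockdown. The site lay inside the gene, 1.06 kb from the gene boundary with the higher coordinate. Nrap, a scaffold of nascent myofibrils, had 7 intragenic sites, 4 of them present in all libraries. The strongest stood at 20.2 and 17.9 against 17.5 and 12.9. Xirp1, an actin-binding repeat protein, stood at 14.1 and 10.9 against 15.8 and 13.7. A further 2 Xirp1 sites, 2.17 kb and 11.5 kb from the gene, had a peak in all libraries but knockdown 2. Actn2, Ldb3, Csrp3, Pdlim3 and Myot each had 1 or 2 regions in all 4 libraries, and Tcap, Myoz1 and Myoz2 had no MyoD region.

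Des, desmin, the intermediate filament that links neighbouring Z-discs, had 3 MyoD regions, all present in every library. The strongest lay 15 kb upstream of the gene and had values of 14.5 and 9.27 in the controls against 14 and 9.40 in the knockdown, so both groups had a high and a low library. At the start the values were 11.6 and 8.94 against 13.6 and 9.01.

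Assembly genes included Smyd1, a methyltransferase needed for myosin assembly, at 13.9 and 17.4 in the controls against 19.2 and 14.9 in the knockdown next to its start. Klhl40, a stabiliser of thin filament proteins, had 10.3 and 10.2 against 10.6 and 18.4. Its knockdown 2 value stood apart from the other 3. Klhl41 had 9.58 and 5.63 against 10.3 and 7.79 at a site by the far end of the gene, and Capn3, the muscle calpain, 6.28 and 6.29 against 5.15 and 10.6 at its start. Unc45b had a single MyoD region at its start (chr11:82910726-82911242), with values of 6.61 and 5.63 in the controls, no peak in knockdown 1, and 6.27 in knockdown 2.

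H3K27ac was called at fewer of the 175 regions in knockdown 2 than in the other libraries, but the groups overlapped. The counts were 106 and 134 in the controls and 135 and 87 after knockdown (120 ± 19.8 and 111 ± 33.9, SD, n = 2 each, exact permutation p = 1). The difference of -9 regions turned to 15 without knockdown 2 and to 4 without control 2. It shrank to -0.5 with equal numbers of peaks or at least 5-fold enrichment, and was -3 with a -log10 q of at least 5. Over all H3K27ac regions the number present was 5.46% lower after knockdown, against 7.5% lower at these genes. Peaks covered 155168 and 175164 bases at the 37 genes in the controls and 179638 and 125430 after knockdown (exact permutation p = 1), and the difference of -12632 bases was 14472 without knockdown 2 and -2634 without control 2.

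**Figure D4:**
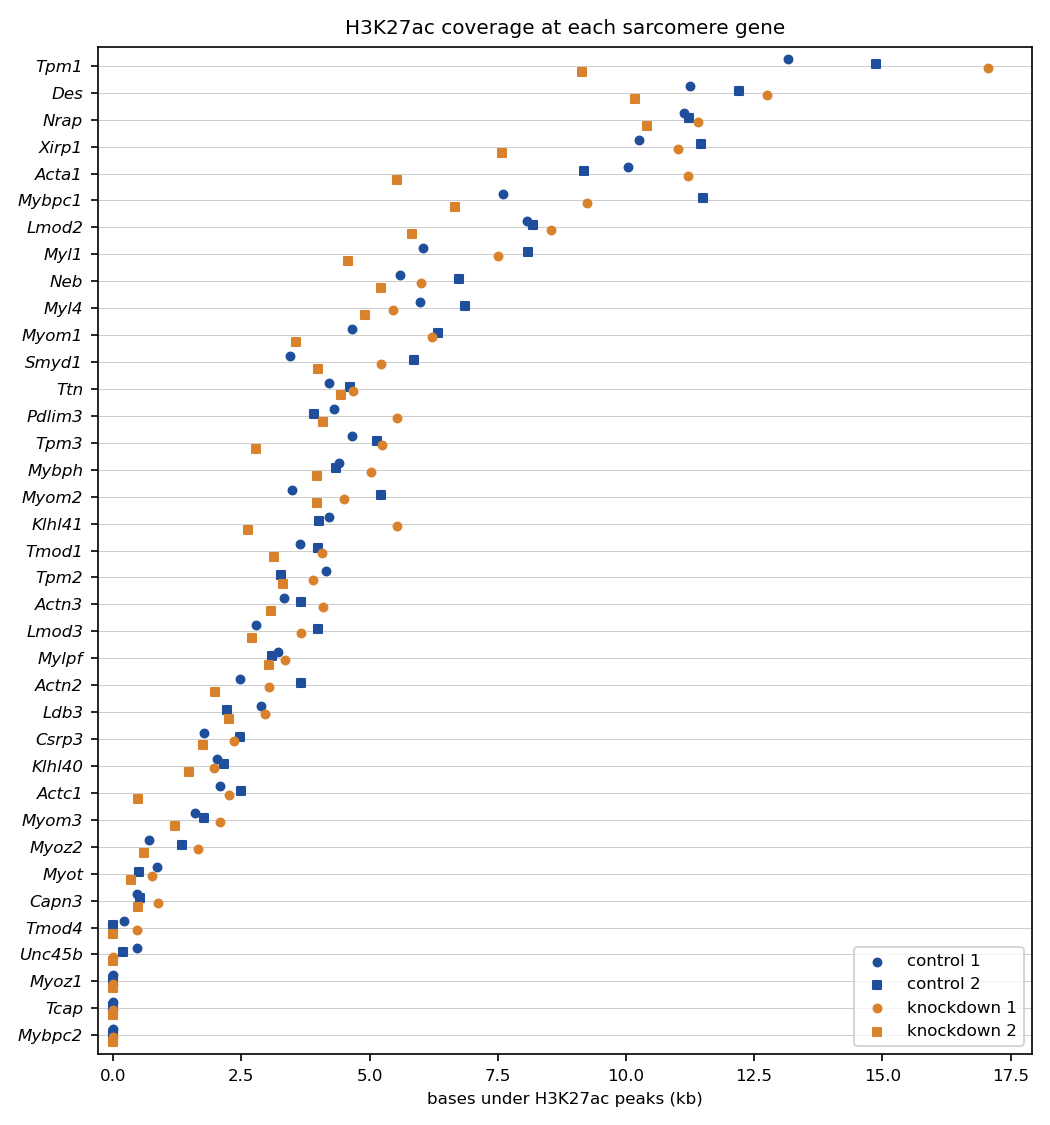
Bases under H3K27ac peaks (x axis, kb) at each of the 37 genes, with 1 point per library. Knockdown 2 is the lowest point at most genes, as at Tpm1 (9.14 kb against 13.2 and 14.9 in the controls and 17.1 in knockdown 1) and Acta1 (5.54 kb).

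The most acetylated bases were at Tpm1, Des, Nrap, Xirp1 and Acta1. At Tpm1 a single H3K27ac region of 8308 bases, present in every library, covered the start of the gene and held 3 MyoD regions, none of which was present in all 4 libraries. The region of 5704 bases inside Nrap held 3 MyoD regions that were present in all 4, and the region of 5610 bases over the Des start held 2. Of the 79 H3K27ac regions present in all libraries at these genes, 52 (65.8%) held a MyoD region, against 44.7% of all such regions. The highest H3K27ac fold enrichment lay inside Myom2, at 20.6 and 23.4 in the controls against 21.8 and 20.5 in the knockdown. At Acta1 the highest was a region 6.10 kb from the gene, at 21.2 and 17.9 against 19.6 and 16.7.

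Among the 175 H3K27ac regions 79 had a peak in every library, 4 were control-only (2.29%, background 1.46%) and 1 was knockdown-only (0.571%, background 0.769%). These regions were narrow and weak. The control-only region at Actc1 (chr2:114052895-114053369) overlapped the upstream sequence printed earlier, with values of 3.35 and 4.04. At Unc45b (chr11:82910869-82911177) the values were 4.46 and 3.95, and inside Myl4 (chr11:104568134-104568659) they were 3.15 and 3.75. The region 18 kb from Myot, myotilin, had 3.53 and 3.55. The knockdown-only region was 0.208 kb from Csrp3, muscle LIM protein (chr7:48848259-48848480), with 3.27 and 3.45. With a -log10 q of at least 5, 0 of the 5 regions remained group-only.

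With all deposited peaks counted, Actc1 and Unc45b were the genes whose state differed between groups. At Actc1 the MyoD region 4.63 kb upstream of the gene (chr2:114057505-114057833) had values of 6.28 and 5.30 in the controls, no peak in knockdown 1, and 4.31 in knockdown 2. Its other 2 MyoD sites had a peak in control 1 alone (4.30 and 5.29). H3K27ac at Actc1 was called at 5 and 6 regions in the controls, 5 in knockdown 1 and 1 in knockdown 2, so knockdown 1 did not differ from the controls in number. The 1 region present in all libraries, 4.23 kb upstream, had values of 5.21 and 4.91 against 5.03 and 4.46. At Unc45b, 2 weak H3K27ac regions were called in control 1, 1 in control 2 and 0 in either knockdown library, also with equal numbers of peaks for the start-proximal region.

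**Figure D5:**
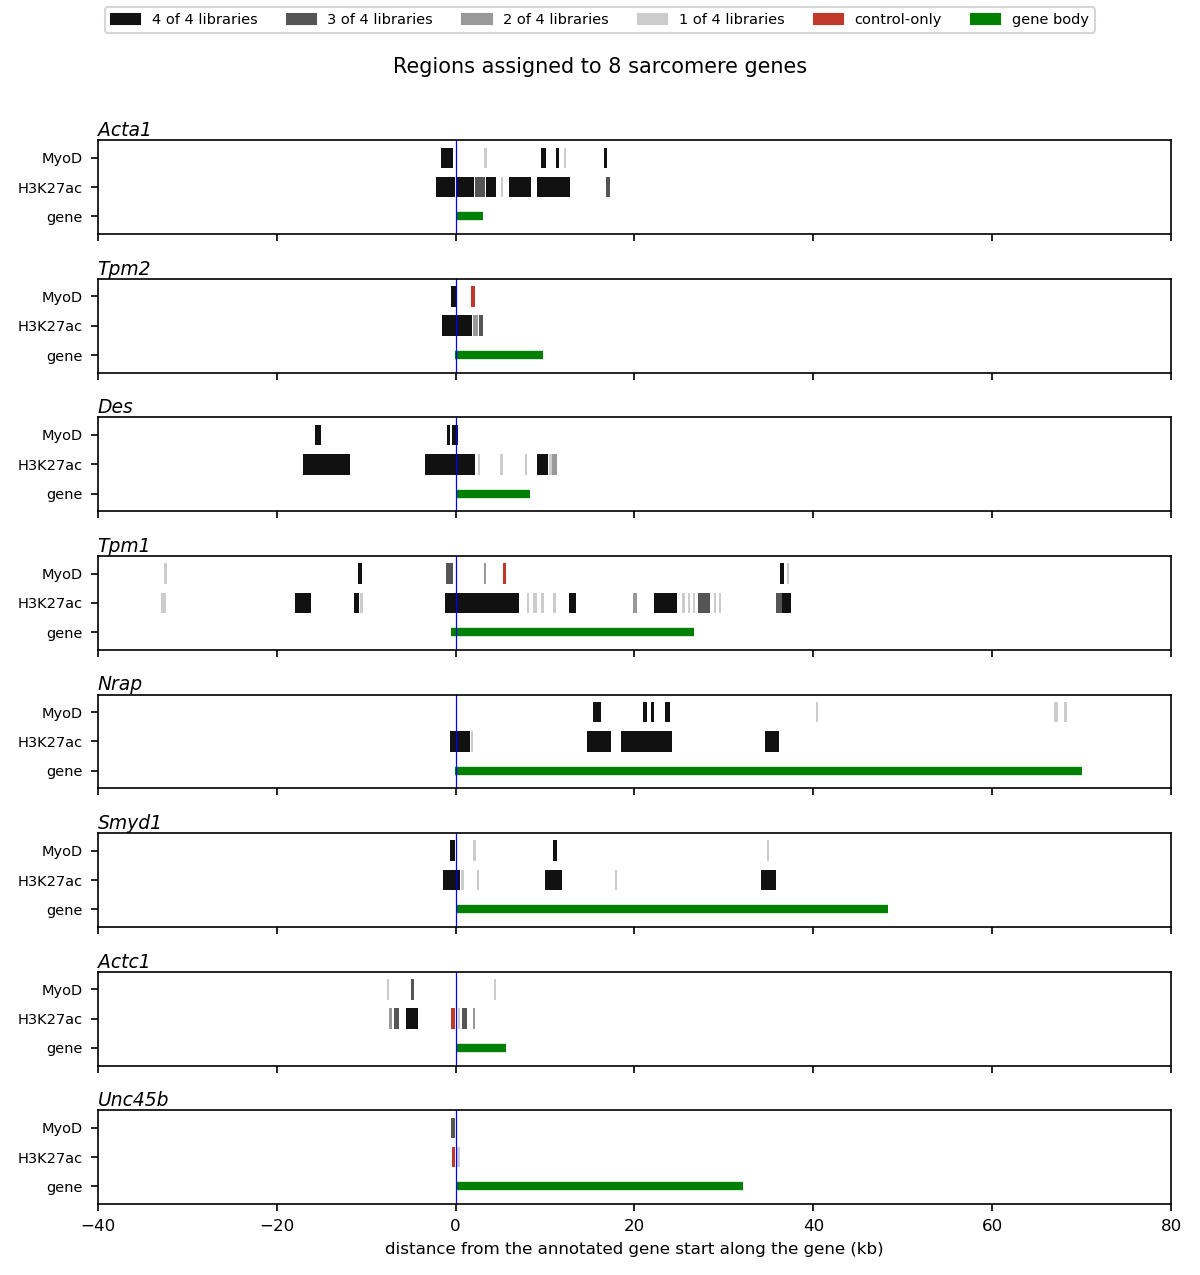
MyoD and H3K27ac regions assigned to 8 of the genes by distance from the annotated gene start (x axis, kb), with shading for the number of libraries, red for control-only regions and green for the gene body. Narrow regions are widened to stay visible, and black regions, present in all 4 libraries, are found at every gene shown but Unc45b.

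MyoD sites at these genes lay mostly within acetylated chromatin. In the controls 57 of the 61 MyoD regions with a peak in both libraries overlapped an H3K27ac region with a peak in both libraries (93.4%, exact 95% Clopper-Pearson interval 84.1% to 98.2%). After knockdown it was 47 of 54 (87.0%, interval 75.1% to 94.6%). The intervals cover counting error over regions only. The 52 regions present in all libraries enter both shares, so the intervals are not independent and do not compare the groups. Over all MyoD regions the shares were 77.1% and 75.6%. The order of the groups turned with equal numbers of peaks (91.1% in the controls and 93.6% after knockdown) and with a -log10 q of at least 5 (86.7% and 87.0%). It also turned without control 1 (83.8% and 87.0%) and without control 2 (85.3% and 87.0%). There a peak in the remaining control alone was enough, so the rule was looser for the controls than for the knockdown. Without knockdown 1 the shares were 91.8% and 82.8%, and without knockdown 2 they were 93.4% and 87.7%, with the looser rule for the knockdown. Of the 52 MyoD regions present in all libraries, 47 lay in an H3K27ac region of all libraries, 2 in another one and 3 outside, at Lmod3, Myl1 and Myom3.

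A list of 40 other sarcomere genes, among them troponins, myosin heavy chains, Flnc and Ankrd1, was counted the same way. Of these 25 carried both antibodies in the controls and 23 after knockdown, and 4 and 6 carried neither. Their 78 MyoD regions held 40 present in all libraries, 2 control-only (at Xirp2 and Fhl1) and 0 knockdown-only, and their 166 H3K27ac regions held 1 control-only (Pdlim7) and 2 knockdown-only (Palld and Synpo2).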

How the data were processed

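Per the labels, 8 ChIP libraries (H3K27ac or MyoD, control or LncMyoD-KD, 2 each) were made by tagmentation. The other 8 of the 16 samples are inputs and were not analysed here. The submitters' processing notes name MACS2 2.1.1, mm10, SAMtools 1.3, bedtools 2.26.0, Picard 2.9.2 and Bowtie2 2.3.2, with options not given in the sources used here. The authors deposited 1 peak list per library, not pooled. Each deposited peak has a fold enrichment (a linear ratio), −log10 p and −log10 q values, a whole-number score that equals the −log10 q times 10, rounded down, and a summit position. No deposited −log10 q was below 1.30.

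Peaks on chromosomes 1 to 19 and X were merged with Python 3.11.15 and pandas 2.3.3 (gap 0 bp, 1 shared base). Regions overlapping several genes went to the one with the nearest end. Numbers per library were tested two-sided by exact permutation over all 6 assignments, and shares were given Clopper-Pearson intervals (scipy 1.17.1). Merging, assignment and class calls were tested on simulated data. The 37 genes, the 40 other genes, the markers and the tests were chosen with earlier results of these data known. The promoter motifs CArG and MEF2 were added after the files were seen. Named with values in every library are genes with group-only regions, without a region or with a changed state, and the top 3 per role group by MyoD fold. The other genes, Acta1, Ttn, Capn3 and Tpm3 among them, are named to account for the list. E-boxes at peak summits outside promoters were not analysed here.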

Additional observations from a re-analysis of the deposited data

How the results depend on the processing

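The exact tests could not pass 0.05 under any setting, so their stability shows nothing. Of 161 alternative values, each scored on its own, 133 kept direction or size, 24 moved and 4 reversed, these on leaving out a library. Shares and numbers given for each group enter this tally singly, so it does not show where the order of the groups turned. For the share inside H3K27ac it turned in the 4 settings given with that result, and for genes with both antibodies with peaks of at least 5-fold (26 and 27). Leaving out each library in turn gave differences of -2.5 to 0.5 for genes with MyoD, -16 to -9 for MyoD regions, -1.5 to -0.5 for genes with H3K27ac, -38 to 15 for H3K27ac regions and -39736 to 14472 for covered bases. Without a library, a group-only region needs a peak in 1 library of its group or is absent from 1, and the counts ranged from 5 to 14 (MyoD control-only), 0 to 2 (MyoD knockdown-only), 4 to 32 (H3K27ac control-only) and 1 to 27 (H3K27ac knockdown-only). For the share of MyoD regions inside H3K27ac, the group that lost a library was likewise judged by its remaining library alone. This share ranged from 83.8% to 93.4% in the controls and from 82.8% to 87.7% after knockdown.

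Equal numbers of peaks gave 1 control-only MyoD region. Peaks of at least 5-fold gave 1 knockdown-only MyoD region, 1 control-only and 0 knockdown-only H3K27ac regions, and a control share inside H3K27ac of 78.6%. A -log10 q of at least 5 gave 0 control-only and 0 knockdown-only H3K27ac regions, merging within 1000 bp gave 2 control-only, and gene-body regions alone gave 1 control-only and 0 knockdown-only. The cause was not tested.

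The replicate block (difference within replicate numbers) gave the same differences, with an exact p of 0.5 for MyoD regions (-12.5) and for genes with H3K27ac (-1), the smallest it can give, and p = 1 for genes with MyoD (-1), H3K27ac regions (-9) and covered bases (-12632). The labels do not say that the numbers pair the libraries. Over regions of all 4 libraries the deviations of same-numbered libraries correlated at 0.104 (MyoD) and 0.155 (H3K27ac). Peak presence says nothing of a change in signal at sites that stay above the caller's threshold, and read depth is unknown. The planned E-box search at MyoD summits with other windows was not run, since no genome sequence was used here.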
